A study of Mus musculus with 15 samples.

Results

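Transcript levels of 7 genes were described in cultured mouse glioma cells and in untransformed neurospheres. The genes, namely Nxf3, Piwil4, Piwil2, Mael, Dazl, Ddx4 and Sycp3, are best known from the germ line or, for Nxf3, from somatic testis cells. They were taken as every probe set whose array annotation gives one of these symbols, with no filter on dim probe sets, which gave 9 probe sets of 45037 and 7 genes of 18193. The genes had been chosen because some of them stood higher in tumour lines in these same arrays, so their differences between tumour cells and neurospheres, and between the tumour lines, are given as a description with no test. The name "germline genes switched on in tumour lines" held only in part: Nxf3 was bright in both lines, 1 of the 2 probe sets of Piwil4 was bright in line 4346 alone, and the other 5 genes stood out in neither line.

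There were 15 arrays in 5 groups of 3. Lines 3447 and 4346 were tumorspheres, floating cultures grown from brain tumours, and the donor genotype was S100beta-verbB;p53-/- or S100beta-verbB;p53+/-. Each was injected into brains of host mice (strain NOD.Cg-Prkdc<scid>Il2rg<tm1Wjl>/SzJ, which lacks mature lymphocytes), and the 3 replicates of a line are cultures from 3 such hosts. Cells were then sorted into side population (SP) cells, which pump out a DNA dye, and non-SP cells, giving the groups 3447 SP, 3447 non-SP and 4346 SP. The control groups, neurosphere SP and neurosphere non-SP, were sorted from untransformed neurospheres of 3 mice of the same genotypes. The labels of those arrays name them neural stem cells, and the design text calls them at one point cultures from mice injected with neurospheres. All 5 groups therefore carry the verbB transgene, an activated form of the epidermal growth factor receptor under the S100beta promoter, which is active in glial cells, together with loss of 1 or both copies of p53. Which p53 genotype belongs to which sample, and the ages of the mice, were not given in the sources used here. Each tumour line stems from 1 primary tumour, so the spread among its replicates does not cover the spread among tumours, whereas the neurosphere replicates come from different mice. In bulk samples such as these, fewer cells that express a gene and less RNA per cell cannot be told apart.

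Values are MAS5 signals as deposited, on a linear scale on which the array medians lay between 40.0 and 89.3. Probe sets were compared as log2(signal + 16) after quantile normalization, a scale that understates the change of dim probe sets, and differences are given ± SE from a linear model of all arrays. Of the 15 arrays the third 3447 SP array was brightest by its median and least like its own group, with a mean rank correlation of 0.855. The third 4346 SP array stood apart in RNA quality, with a 3′ to 5′ ratio of 5.30 for the beta-actin control probe sets, against 2.49 to 3.29 on the other 14 arrays. All groups had the neural marker Sox2 at a bright level, with array signals of 5656 to 7326. Sox2 belongs to a list of 6 neural progenitor markers. Of these, 3 were called lower in the 3447 SP and 4 in the 4346 SP than in the neurosphere SP, as detailed below. Of the spermatid genes, protamine 1 (Prm1) averaged 109, 80.7 and 101 in the 3447 SP, 3447 non-SP and 4346 SP, against 57.3 in the neurosphere SP and 94.2 in the neurosphere non-SP. Transition protein 1 (Tnp1) averaged 5.44, 5.91 and 3.23 in the 3447 SP, 3447 non-SP and 4346 SP, against 9.95 in the neurosphere SP and 14.6 in the neurosphere non-SP.

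In animals, genes that serve only the making of eggs and sperm are kept silent in body cells, in part by methylation of CpG-rich promoters and in part by a repressor complex that contains E2F6, MGA and MAX. E2F6 recognises an E2F element and the MGA and MAX pair an E-box in promoters of meiotic genes. When germ cells form, the marks are removed, and the piRNA pathway, in which PIWI proteins carry small RNAs, silences transposons in their place. Activation of single germline genes is common in human cancers, where the products are known as cancer-testis antigens.

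The promoters of 3 of these genes are shown because each is a different case of the letters that this repressor complex reads. They are the 250 bases before the RefSeq gene start on GRCm38.p6, read on the gene's strand, with E-box (CACGTG, which is its own reverse complement) and E2F (TCCCGC or its reverse complement GCGGGA) matches in capitals. No match overlapped another. The Piwil4 window lies at chr9:14740673-14740922 on the minus strand, the Mael window at chr1:166238745-166238994 on the minus strand and the Sycp3 window at chr10:88459337-88459586 on the plus strand.
Piwil4: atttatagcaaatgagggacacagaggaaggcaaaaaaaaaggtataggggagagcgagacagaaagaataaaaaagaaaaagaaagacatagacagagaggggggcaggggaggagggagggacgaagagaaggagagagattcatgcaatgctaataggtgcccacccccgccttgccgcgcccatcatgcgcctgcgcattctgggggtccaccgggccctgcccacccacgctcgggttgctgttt
Mael: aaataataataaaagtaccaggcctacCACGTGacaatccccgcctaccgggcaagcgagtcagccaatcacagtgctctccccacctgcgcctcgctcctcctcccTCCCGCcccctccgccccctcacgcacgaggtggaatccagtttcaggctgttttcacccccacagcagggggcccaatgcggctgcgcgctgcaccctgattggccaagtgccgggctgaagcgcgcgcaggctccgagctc
Sycp3: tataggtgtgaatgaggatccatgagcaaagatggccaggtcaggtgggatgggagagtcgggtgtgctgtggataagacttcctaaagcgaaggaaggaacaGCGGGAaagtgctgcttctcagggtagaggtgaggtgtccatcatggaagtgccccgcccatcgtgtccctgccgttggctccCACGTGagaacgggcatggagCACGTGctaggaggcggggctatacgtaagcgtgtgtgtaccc
RefSeq gives Piwil4 a second start, and the window before it (chr9:14718388-14718637, not shown) held 0 CpG and neither motif. The Piwil4 window shown held 10 CpG and neither motif, the Mael window 18 CpG with 1 E-box and 1 E2F match, and the Sycp3 window 12 CpG with 2 E-box matches and 1 E2F match. Of all 32851 RefSeq promoters of that length, 6.02% held the E-box, 16.9% the E2F letters and 1.45% both, and the median number of CpG was 6. Among the other genes, Dazl had 20 CpG and neither motif and Ddx4 had 31 CpG with 1 match of each, in a window that lies within the annotated extent of the gene. RefSeq windows were at hand for 5 of the 7 genes, and Nxf3 and Piwil2 are named only. A match describes letters and is not evidence of binding.

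Nxf3 encodes an X-linked relative of the nuclear mRNA export receptor NXF1, and in the mouse testis its protein has been described in Sertoli cells, the somatic support cells of the tubules. Its single probe set, 1456035_at, read 7362, 5255 and 4076 on the 3447 SP arrays, 5842, 6637 and 5748 on the 3447 non-SP arrays, and 2229, 7119 and 7476 on the 4346 SP arrays. It read 4.87, 82.8 and 4.11 on the neurosphere SP arrays and 53.1, 163 and 25.8 on the neurosphere non-SP arrays. All 9 tumour arrays stood far above all 6 neurosphere arrays. Within its own array Nxf3 ranked between percentiles 91.4 and 98.0 of probe sets in tumour cells, whereas in neurospheres it lay between percentiles 11.4 and 64.1. The log2 difference was 7.35 ± 0.56 for 3447 SP against neurosphere SP, 7.14 ± 0.56 for 4346 SP against neurosphere SP, and 6.24 ± 0.56 for 3447 non-SP against neurosphere non-SP. Those differences placed Nxf3 at positions 7, 10 and 13 from the top among 18193 genes. Leaving out any 1 array gave 6.94 to 8.12 in the 3447 SP and 6.73 to 7.91 in the 4346 SP, with the highest value in both when the second neurosphere SP array was left out.

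**Figure D1:**
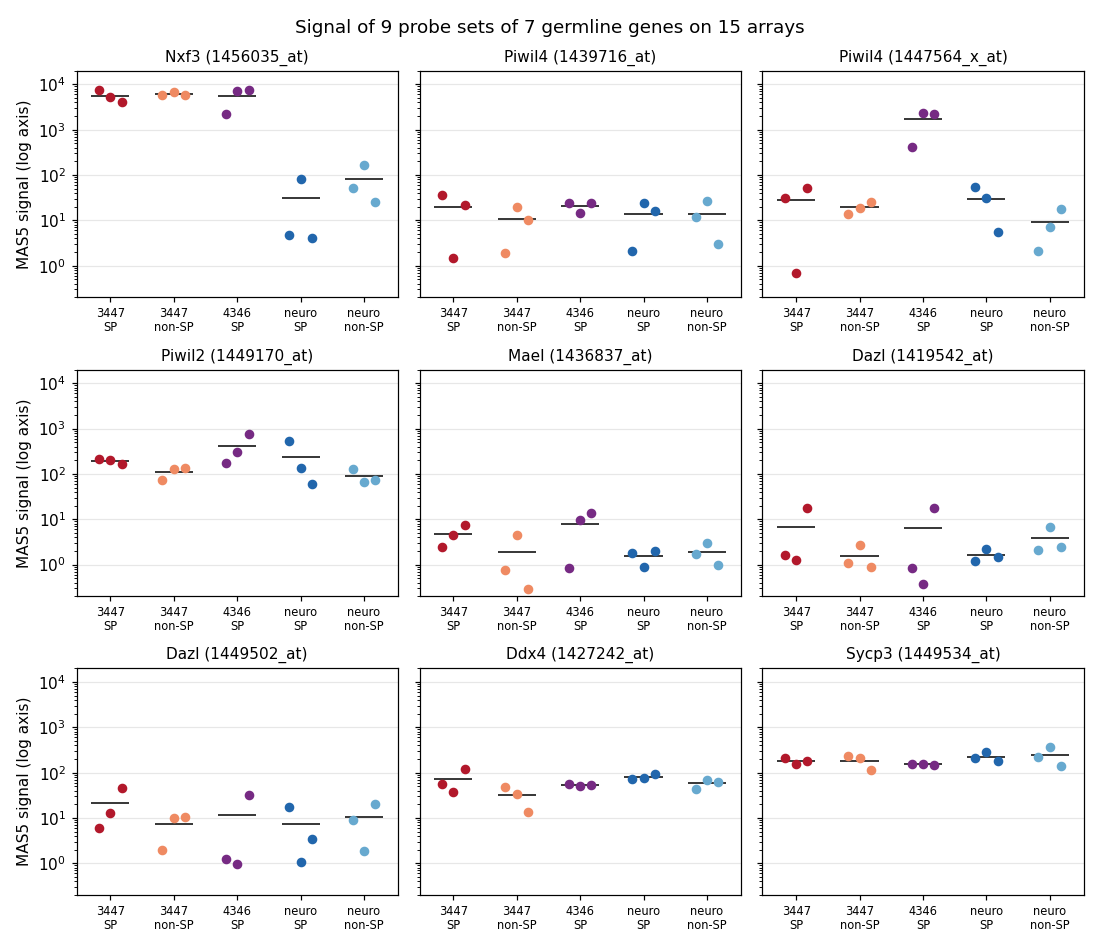
Deposited MAS5 signal (log axis) of each of the 9 probe sets on the 15 arrays, with 1 point per array, grouped from left to right as 3447 SP, 3447 non-SP, 4346 SP, neurosphere SP and neurosphere non-SP. Horizontal bars are group means of 3 arrays. Nxf3 separates all tumour arrays from all neurosphere arrays, the Piwil4 probe set 1447564_x_at separates only the 4346 SP arrays, and the Mael and Dazl probe sets stay dim throughout.

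The levels of Nxf3 in the 3 tumour groups overlapped. The group means were 6075 ± 488 in the 3447 non-SP, 5608 ± 2932 in the 4346 SP and 5564 ± 1665 in the 3447 SP (SD, n = 3 each), so neighbours in that order did not differ beyond their spread. The log2 difference between the SP of the lines, 3447 minus 4346, was 0.21 ± 0.56. Its sign turned when arrays were centred on their medians (-0.26), and leaving out 1 array at a time gave -0.35 to 0.51. In the neurospheres the means were 30.6 ± 45.2 in the SP and 80.5 ± 72.4 in the non-SP. The second array of each neurosphere group, which carry the same replicate number, was the brightest of its 3.

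Piwil4 (also called MIWI2) is a PIWI protein of fetal male germ cells that directs DNA methylation to transposons. Its probe set 1447564_x_at read 417, 2399 and 2236 on the 4346 SP arrays, against 53.5, 30.7 and 5.45 on the neurosphere SP arrays. On the 3447 SP arrays it read 31.9, 0.687 and 50.7, and on the 3447 non-SP arrays 13.9, 18.7 and 25.2. On the neurosphere non-SP arrays it read 2.16, 7.05 and 17.97. The lowest 4346 SP array was thus brighter than each of the other 12 arrays, all of which read 53.5 or less. The log2 difference of 4346 SP from neurosphere SP was 4.99 ± 0.61, and leaving out 1 array at a time gave 4.48 to 5.79. That of 3447 SP from neurosphere SP was -0.42 ± 0.61, and that of 3447 SP from 4346 SP was -5.41 ± 0.61. The probe sets of Piwil4 disagreed, since 1439716_at read 24.1, 14.8 and 24.6 on the 4346 SP arrays and 2.16, 24.3 and 15.96 on the neurosphere SP arrays. It lay below the median of its own array on all 15 arrays, and its log2 difference between those groups was 0.61 ± 0.39. The suffix of the bright probe set marks probes that may also match other transcripts, and which transcript the signal came from was not tested.

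Piwil2 (MILI), a PIWI protein needed in mouse germ cells for the piRNAs that Piwil4 carries, was measured above its array's median on 14 of 15 arrays, in both tumour cells and neurospheres. Probe set 1449170_at read 210, 200.4 and 167 on the 3447 SP arrays, 73.0, 125 and 137 on the 3447 non-SP arrays and 178, 305 and 757 on the 4346 SP arrays. The neurosphere SP arrays read 521, 135 and 59.9 and the neurosphere non-SP arrays 131, 66.7 and 74.8. The brightest value came from the third 4346 SP array, the one with the raised 3′ to 5′ ratio, and the next from the first neurosphere SP array. The 4346 SP and neurosphere SP groups overlapped, and their log2 difference was 1.02 ± 0.59. It was 0.49 without that 4346 SP array, 1.82 without the first neurosphere SP array and 0.35 without the third. In the 3447 SP the difference from the neurosphere SP was 0.05 ± 0.59.

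Mael, a component of the germ granules where piRNAs are made, and Dazl, an RNA-binding protein that promotes translation in germ cells, were dim in every group. Mael (1436837_at) read 2.49, 4.54 and 7.43 on the 3447 SP arrays and 0.853, 9.67 and 13.4 on the 4346 SP arrays, against 1.79, 0.897 and 1.96 on the neurosphere SP arrays. The deposited signals of the 3447 SP arrays lay above those of the neurosphere SP arrays, but after normalization the groups overlapped, with a log2 difference of 0.18 ± 0.23. On all 15 arrays Mael was below the median of its array. The 2 Dazl probe sets did not exceed 17.8 (1419542_at) and 45.8 (1449502_at) on any array, and each was below its array's median on all 15. Their log2 differences from the neurosphere SP lay between 0.16 and 0.47 in the 3447 SP and between 0.19 and 0.28 in the 4346 SP, with overlapping arrays.

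Ddx4, the mouse Vasa homologue and an RNA helicase of germ granules, lay near the middle of the array's range, and Sycp3, a structural protein of the meiotic chromosome axis, above it. Ddx4 (1427242_at) read 57.5, 37.6 and 120 on the 3447 SP arrays and 56.4, 49.7 and 54.1 on the 4346 SP arrays, against 71.5, 75.8 and 95.3 on the neurosphere SP arrays. Sycp3 (1449534_at) read 208, 153 and 184 on the 3447 SP arrays and 154, 156 and 151 on the 4346 SP arrays, against 207, 292 and 183 on the neurosphere SP arrays. For both genes the 4346 SP arrays were below all neurosphere SP arrays, with log2 differences of -0.33 ± 0.36 for Ddx4 and -0.46 ± 0.34 for Sycp3, while the 3447 SP arrays overlapped with them. In the non-SP, Ddx4 read 47.7, 34.3 and 13.7 in line 3447, against 43.0, 70.2 and 62.2 in neurospheres. Sycp3 was above its array's median on all 15 arrays, with the highest value, 364, in a neurosphere non-SP array.

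**Figure D2:**
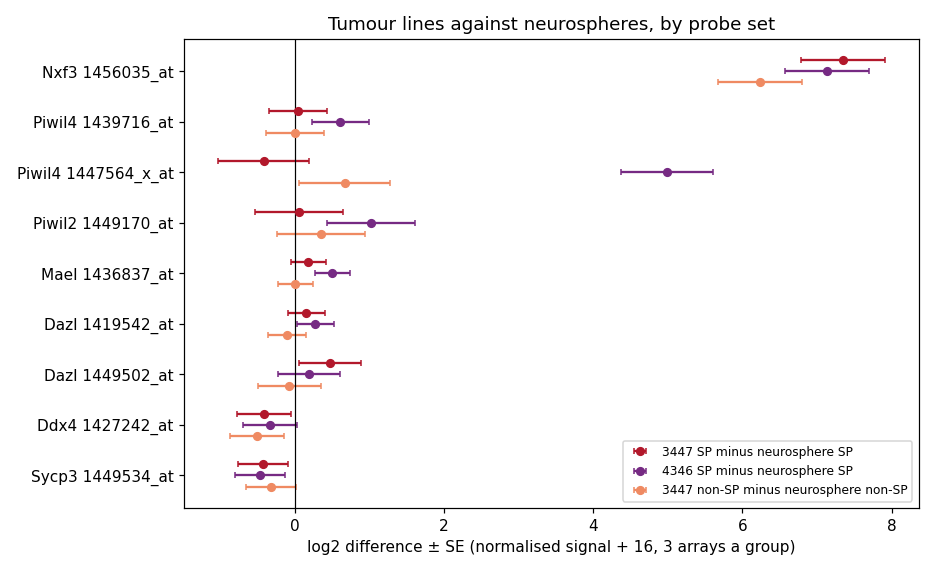
Log2 difference ± SE (normalised signal + 16, 3 arrays a group) of each of the 9 probe sets, for 3447 SP and 4346 SP against neurosphere SP and for 3447 non-SP against neurosphere non-SP. Nxf3 lies between 6.24 and 7.35 in all 3 comparisons, Piwil4 1447564_x_at at 4.99 in the 4346 SP only, and every other value lies between -0.50 and 1.02.

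By deposited signals, 2 of the 9 probe sets (Nxf3 and Mael) had all 3447 SP arrays above all neurosphere SP arrays and 0 had them below. Over all probe sets 12.7% were separated upwards and 9.45% downwards in that comparison. In the 4346 SP, 2 were separated upwards (Nxf3 and the bright Piwil4 probe set) and 2 downwards (Ddx4 and Sycp3), where all probe sets gave 10.1% and 16.9%. In the 3447 non-SP, 1 (Nxf3) was separated upwards and 0 downwards, where all probe sets gave 10.9% and 13.8%. Between the SP of the lines, 0 were higher in 3447 and 1 (Piwil4) was lower, where all probe sets gave 11.9% and 4.43%. The median log2 difference over the 9 probe sets was 0.05 in the 3447 SP, 0.50 in the 4346 SP and 0.01 in the 3447 non-SP, against -0.01, -0.03 and -0.01 over all probe sets. On the normalized log2 scale 7 of these 9 probe sets gave the same answer in each of the 4 comparisons, while Mael overlapped in the 3447 SP and Dazl 1419542_at was separated downwards in the 3447 non-SP. These counts come from the comparisons that chose the genes, the tumour SP groups share their neurosphere arrays, and nothing is read from them. Only 5 of the probe sets, 1 each of Nxf3, Piwil4, Piwil2, Ddx4 and Sycp3, lay above their array's median on at least 3 arrays.

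The contrast of SP with non-SP cells was not what chose the genes, so it was tested. The same arrays entered the comparisons with neurospheres that chose the genes, so these tests are not fully independent of the choice. A gene chosen for a low signal in the neurosphere SP would lean towards SP below non-SP there. In line 3447, limma called 0 of the 9 probe sets between SP and non-SP, 0 of which had an unadjusted p under 0.05, and called 0% of all probe sets. In neurospheres it called 0 of 9, with 1 at an unadjusted p under 0.05, and 0.00666% of all probe sets. The difference of these effects was called for 0 of 9, with 0 at an unadjusted p under 0.05, and for 0% of all probe sets. Of all 45037 probe sets, 2818 had an unadjusted p under 0.05 in line 3447 and 1882 in neurospheres. For the difference of the effects 1503 did. Nxf3 differed by -0.10 ± 0.56 between SP and non-SP in line 3447 (limma adjusted p = 0.990) and by -1.22 ± 0.56 in neurospheres (unadjusted p = 0.0447, limma adjusted p = 1.000). The difference of these effects for Nxf3 was 1.11 ± 0.79 (limma adjusted p = 1.000). The neurosphere SP array read lower than the non-SP array of the same replicate number in 3 of 3 pairs. With the replicate number as a block among neurosphere arrays the unadjusted p was 0.00472 and the adjusted p 0.646.

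Of the other genes, 2 had arrays that separated SP from non-SP. Piwil2 was higher on all 3447 SP arrays than on all 3447 non-SP arrays, with a log2 difference of 0.57 ± 0.59 (limma adjusted p = 0.916), and 8.34% of all probe sets were separated upwards and 4.65% downwards in that way. Ddx4 was higher on all neurosphere SP arrays than on all neurosphere non-SP arrays, by 0.45 ± 0.36 (limma adjusted p = 1.000), and 3.86% of all probe sets were separated upwards and 4.98% downwards so. The remaining differences between SP and non-SP lay between -0.31 and 0.55 in line 3447 and between -0.23 and 0.87 in neurospheres. Groups of 3 arrays limit the precision, and a difference that missed the threshold may still exist.

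A wider set of germline genes was counted to see how far the pattern of Nxf3 was shared. Lists for the piRNA pathway, meiotic chromosomes, germ cell specification, testis and cancer-testis genes, spermatids and oocytes held 127 genes other than the 7 above, of which 103 had a probe set. Of these, 60 lay below their array's median on all 15 arrays and 21 lay above it on at least 3. Over all 18193 genes the counts were 4642 and 11896, so the lists held a larger share of dim genes. The part of this dimness in the calls was not tested. Against the neurosphere SP, 1 of 103 rose and 3 fell in the 3447 SP, where 5.82% and 4.59% of all genes were called higher and lower. In the 4346 SP 2 rose and 6 fell, where all genes gave 7.93% and 5.32%. In the 3447 non-SP 5 rose and 1 fell against the neurosphere non-SP, where all genes gave 6.10% and 4.37%. Between the SP of line 3447 and of line 4346, limma called 0 of 103 in either direction, where all genes gave 0.231% higher and 0.605% lower. At an unadjusted p under 0.05 there were 11 of the 103, against 2566 of all 18193 genes. The median log2 difference of the 103 genes was -0.13, -0.04 and -0.06 in the 3 comparisons with neurospheres, against -0.01, 0.01 and 0.02 over all genes. The balance of calls depended on the scaling: 53.9% of the probe sets called in each of the 3 comparisons with neurospheres were higher, but with arrays centred on their medians this was 71.6% in the 4346 SP and 64.2% in the 3447 non-SP, and 45.8% in the 3447 SP, where most calls were then lower. Between the SP of the lines it was 32.2%, and 8.13% with centring.

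**Figure D3:**
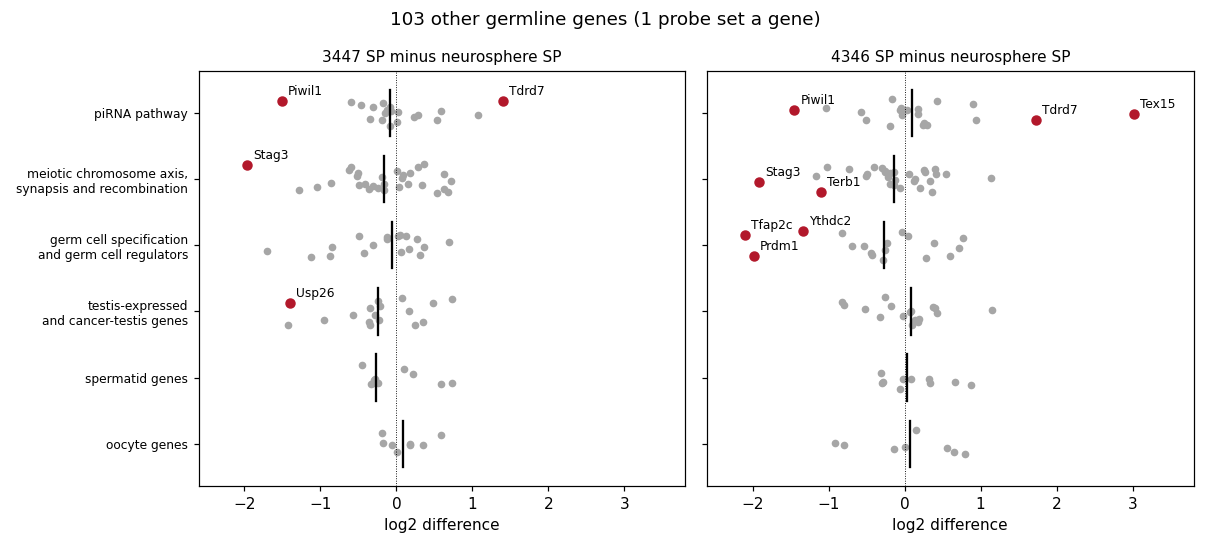
Log2 difference of each of 103 other germline genes from the neurosphere SP in the 3447 SP (left) and the 4346 SP (right), by list, with 1 probe set a gene. Red, named points passed limma's test, grey points did not, and black bars are list medians. Tdrd7 rose in both lines and Tex15 in the 4346 SP only by this test, while most genes of each list lie within 1 log2 unit of 0.

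In the piRNA list, 20 genes were measured. Tdrd7, a Tudor protein of germ granules that the eye lens also uses, read 466, 319 and 679 on the 3447 SP arrays and 825, 525 and 445 on the 4346 SP arrays, against 130, 177 and 175 on the neurosphere SP arrays. It rose by 1.40 ± 0.30 in the 3447 SP (limma adjusted p = 0.00559) and by 1.73 ± 0.30 in the 4346 SP (limma adjusted p = 0.000816). The 3447 non-SP arrays read 925, 723 and 880, against 244, 228 and 238 on the neurosphere non-SP arrays, a rise of 1.77 ± 0.30 (limma adjusted p = 0.000743). Every tumour array was above every neurosphere array of the same sort, and the other Tdrd7 probe set moved the same way, by 0.96, 0.89 and 1.77.

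Tex15, a nuclear protein that acts with Piwil4 in silencing transposons in fetal mouse germ cells, read 284, 578 and 1392 on the 4346 SP arrays, against 42.3, 79.3 and 70.8 on the neurosphere SP arrays. It rose there by 3.02 ± 0.50 (limma adjusted p = 0.000596), and the call held in all 24 other settings tried. The 3447 SP arrays read 243, 135 and 137 (1.07 ± 0.50, limma adjusted p = 0.247). The difference between the SP of the lines, 3447 minus 4346, was -1.95 ± 0.50 (limma adjusted p = 0.105). Tex15 also rose in the 3447 non-SP, by 1.69 ± 0.50 (limma adjusted p = 0.0459), but the arrays overlapped and the call was lost in 15 of 24 other settings. Piwil1 (MIWI), the PIWI protein of later spermatogenesis, moved the other way. It read 6.98, 2.47 and 17.8 on the 3447 SP arrays and 2.13, 4.79 and 9.85 on the 4346 SP arrays, against 46.1, 51.3 and 44.6 on the neurosphere SP arrays. It fell by 1.505 in the 3447 SP (SE 0.28, limma adjusted p = 0.00203) and by 1.45 in the 4346 SP (SE 0.28, limma adjusted p = 0.00236), at a low level in all groups.

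Of the 30 meiotic chromosome genes, Stag3, a subunit of the meiotic cohesin ring, was called in all 3 comparisons. It read 4.32, 0.994 and 63.7 on the 3447 SP arrays and 17.2, 3.94 and 4.38 on the 4346 SP arrays, against 68.5, 76.4 and 108 on the neurosphere SP arrays. It fell by 1.97 in the 3447 SP (limma adjusted p = 0.0155), fell by 1.92 in the 4346 SP (limma adjusted p = 0.0152) and fell by 1.91 in the 3447 non-SP (limma adjusted p = 0.0183). Leaving out the third neurosphere SP array ended both SP calls (limma adjusted p = 0.0606 and 0.0576). So did leaving out the first or the second 3447 SP array for line 3447, with values of 0.0713 and 0.0761, and the second or the third 4346 SP array for line 4346, with 0.0562 and 0.0673. The non-SP call ended without the first or the third 3447 non-SP array or the third neurosphere non-SP array, with an adjusted p of 0.0576 to 0.0991. Syce2, of the central element that joins paired chromosomes, read 1265, 1113 and 1169 on the 3447 non-SP arrays, against 308, 474 and 344 on the neurosphere non-SP arrays, a rise of 1.63 ± 0.38 (limma adjusted p = 0.0105, and 0.0501 without the first neurosphere non-SP array). In the SP groups Syce2 did not pass, at 0.62 in line 3447 and 1.13 in line 4346.

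Among 18 genes of germ cell specification, the regulators Tfap2c and Prdm1 and the RNA-binding protein Ythdc2 fell in the 4346 SP, with log2 differences of -2.11, -1.98 and -1.33 (limma adjusted p = 0.0100, 0.0286 and 0.00288). That was 16.7% of the list, against 5.32% of all genes called lower there. Tfap2c read 0.621, 15.4 and 3.27 on the 4346 SP arrays, against 77.5, 45.3 and 146 on the neurosphere SP arrays. The call of Tfap2c ended without the third neurosphere SP array (limma adjusted p = 0.0545), and that of Prdm1 without the second 4346 SP array or the second or the third neurosphere SP array (0.139, 0.0851 and 0.108). Ythdc2 no longer passed with arrays centred on their medians (0.0554) or with only the compared groups in the fit (0.0530). The remaining calls were Terb1 (fell by 1.10 in the 4346 SP, limma adjusted p = 0.0428), Usp26 (fell by 1.40 in the 3447 SP, limma adjusted p = 0.0380), and Rhox9 and Nlrp5, which rose by 1.64 and 1.28 in the 3447 non-SP (limma adjusted p = 0.0137 and 0.0399). In each of these 4 genes both group means were at most 40.0 signal units. The call of Rhox9 ended without the first 3447 non-SP array (0.0740) and with the deposited scaling (0.0764). Those of Terb1, Usp26 and Nlrp5 were lost in 15, 8 and 8 of 23 other settings, single arrays among them. The other Terb1 probe set moved the opposite way in the 4346 SP, by 0.46. With the mean of the Terb1 probe sets the limma adjusted p was 0.442. None of the 10 spermatid genes was called in any of the 3 comparisons with neurospheres. All genes gave 5.82% higher and 4.59% lower in the 3447 SP, 7.93% and 5.32% in the 4346 SP, and 6.10% and 4.37% in the 3447 non-SP. Of the 10, 8 lay below their array's median on all 15 arrays, and nothing is read from so small a list.

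The machinery that silences germline genes was measured in the same arrays. E2f6 read 460, 266 and 507 on the 3447 SP arrays and 415, 408 and 367 on the 4346 SP arrays, against 933, 988 and 1084 on the neurosphere SP arrays. It fell by 1.35 in the 3447 SP (SE 0.30, limma adjusted p = 0.00768) and by 1.31 in the 4346 SP (SE 0.30, limma adjusted p = 0.00793, and 0.0542 with arrays centred on their medians). In the 3447 non-SP it read 542, 414 and 305, against 1095, 625 and 1277 in the neurosphere non-SP, and fell by 1.19 (limma adjusted p = 0.0177). That last call was lost in 6 of 24 settings, among them those without the second or the third 3447 non-SP array or the first or the third neurosphere non-SP array, with an adjusted p of 0.056 to 0.107. The other E2f6 probe set gave -1.87, -1.37 and -1.43. Over the 16 repressor genes measured, 0 rose in each comparison with neurospheres, and 1 fell in the 3447 SP and in the 3447 non-SP and 3 in the 4346 SP. The share was 6.25% in the first pair, near the 4.59% and 4.37% of all genes called lower there, and 18.8% in the 4346 SP, against 5.32% of all genes. The other 2 in the 4346 SP were Hdac2, a histone deacetylase, by 0.68, and Max by 0.55, and neither passed when arrays were centred on their medians (limma adjusted p = 0.435 and 0.624). The Hdac2 call was lost in 1 of 24 other settings and the Max call in 18 of 24.

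Hells, a chromatin remodeller needed for DNA methylation, read 1086, 697 and 777 on the 3447 SP arrays and 1144, 657 and 860 on the 4346 SP arrays, against 1773, 1718 and 1878 on the neurosphere SP arrays. It fell by 1.11 (limma adjusted p = 0.00259) and 1.04 (limma adjusted p = 0.00358), and by 0.92 in the 3447 non-SP (limma adjusted p = 0.0105, and 0.0629 without the third 3447 non-SP array). With arrays centred on their medians the last 2 calls were lost (limma adjusted p = 0.0998 in the 4346 SP and 0.183 in the 3447 non-SP). It was the only one of 11 genes of DNA methylation and demethylation to be called in any of those comparisons, a share of 9.09% in each, against 4.59%, 5.32% and 4.37% of all genes called lower in the 3447 SP, 4346 SP and 3447 non-SP. Of 9 mRNA export genes, the family to which Nxf3 belongs in function, all lay above their array's median on every array, and only Thoc1 was called in the 3 comparisons with neurospheres, with -0.42 in the 3447 SP, -0.37 in the 4346 SP and -0.39 in the 3447 non-SP, a share of 1 in 9 genes each time. These calls were lost in 9, 20 and 12 of 24 other settings, and other Thoc1 probe sets ran from -1.02 to 0.75 in the 3447 SP. Whether these changes bear on Nxf3 or Piwil4 was not tested.

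Markers of tissues that normally use these genes were also listed. The summed signal of 7 genes of gonadal somatic cells ran from 241 to 328 in the 3447 SP, from 180 to 320 in the 3447 non-SP and from 210 to 275 in the 4346 SP. In the neurosphere SP it ran from 149 to 283 and in the neurosphere non-SP from 195 to 391, so the tumour groups, in which Nxf3 was bright, overlapped with the neurospheres. The sum over 10 spermatid genes ran from 140 to 309 in the 3447 SP and from 169 to 222 in the 4346 SP, against 151 to 208 in the neurosphere SP. The sum over 8 oocyte genes ran from 94.0 to 383 and from 69.5 to 121 in those tumour groups, against 95.6 to 135. The sum over 7 pluripotency genes ran from 135 to 230 and from 149 to 341, against 165 to 281. None of the 3 tumour groups was above the neurosphere groups in any of these sums without overlap. The neural marker Nes had log2 differences of -1.73 in the 3447 SP and -1.67 in the 4346 SP (limma adjusted p = 8.44e-05 and 0.000119), and Prom1 of -3.65 and -3.71 (limma adjusted p = 0.00249 and 0.00186). Of the 6 neural progenitor markers, 3 fell in the 3447 SP (with Msi1) and 4 in the 4346 SP (with Msi1 and Fabp7), and 0 rose, while Sox2 and Vim were not called. These shares were 50% and 66.7%, against 4.59% and 5.32% of all genes called lower. The Msi1 call in the 3447 SP was lost in 15 of 24 other settings. In the 4346 SP it was lost with the mean of its probe sets (limma adjusted p = 0.389), and the Fabp7 call in 6 of 24. Other Msi1 probe sets ran from -0.62 to 0.34 in the 3447 SP and from -0.54 to 0.69 in the 4346 SP. The part of such differences in the values of Nxf3 and Piwil4 was not tested.

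Nxf3 lies at chrX:136071523-136139579 on GRCm38.p6, within a stretch of Bex, Tceal and Gprasp genes, and its neighbours with a probe set did not share its pattern as a block. On the side before it, Gprasp2, which sorts G protein-coupled receptors, rose by 3.55 ± 0.42 in the 3447 SP (mean signal 1585, against 139 in the neurosphere SP), 3.01 ± 0.42 in the 4346 SP (mean 1089) and 2.70 ± 0.42 in the 3447 non-SP. Bhlhb9 rose by 0.58 ± 0.17 in the 3447 SP (limma adjusted p = 0.0498), and by 0.69 ± 0.17 in the 3447 non-SP, and did not pass in the 4346 SP at 0.17. The adjacent Bex2 gave -1.05, -1.15 and -1.51 in the 3447 SP, 4346 SP and 3447 non-SP and was called lower only in the last. On the other side the adjacent 5730412P04Rik was dim and not called. Bex4, beyond it, fell in all 3 comparisons, with -4.80 in the 3447 SP, -2.73 in the 4346 SP and -5.35 in the 3447 non-SP. Tceal8 fell in the 3447 SP (-4.79) and in the 3447 non-SP (-5.34), and its log2 difference between the SP of the lines, 3447 minus 4346, was -3.49 (limma adjusted p = 0.00273).

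**Figure D4:**
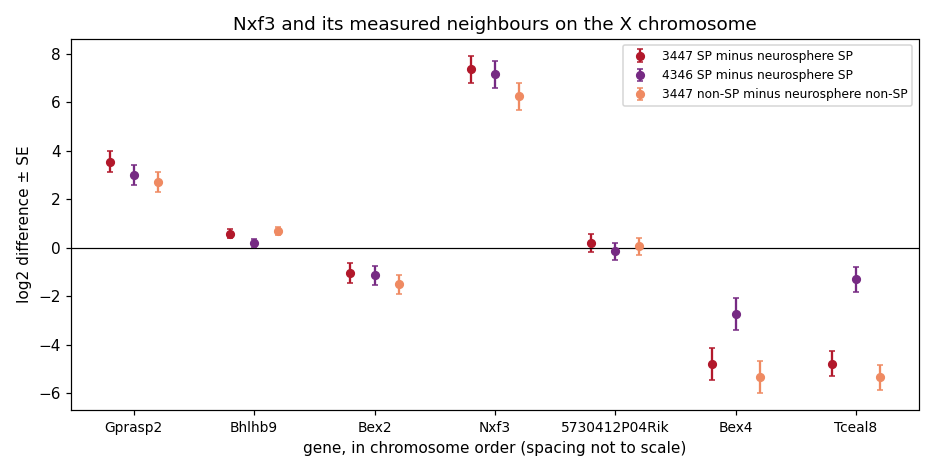
Log2 difference ± SE of Nxf3 and of the 3 genes with a probe set on each side of it on the X chromosome, in chromosome order with spacing not to scale, for 3447 SP and 4346 SP against neurosphere SP and 3447 non-SP against neurosphere non-SP. Gprasp2 lies between 2.70 and 3.55 and Nxf3 above 6, while Bex4 and Tceal8 lie below 0 and the genes adjacent to Nxf3 lie between -1.51 and 0.19.

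Around Piwil4, at chr9:14701776-14740672, 0 of 6 neighbours were called higher in the 4346 SP, where the bright probe set stood out, and 1, Ankrd49, fell by 1.12 ± 0.24 (limma adjusted p = 0.00512). The adjacent genes were Amotl1, at -0.67 ± 0.29 (limma adjusted p = 0.174), and Fut4, at 0.07 ± 0.39. Over the 42 neighbours of all 7 genes, 4 rose and 5 fell in the 3447 SP, and 4 rose and 3 fell in the 4346 SP. Among the same neighbours 5 rose and 6 fell in the 3447 non-SP. Over all genes 5.82% were called higher and 4.59% lower in the 3447 SP, 7.93% and 5.32% in the 4346 SP, and 6.10% and 4.37% in the 3447 non-SP.

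Genes whose profile over the 15 arrays came closest to that of each member were found as those with the smallest root mean square difference of centred log2 values. For Nxf3 they were Capn6, a calpain-like protein, at 0.81, Dkk3, a secreted member of the Dickkopf family, at 0.83, and the integrin subunit Itgb3 at 0.87, when the SD of Nxf3 itself over the arrays was 3.50. Capn6 averaged 2845, 2894 and 2988 in the 3447 SP, 3447 non-SP and 4346 SP, against 20.6 in the neurosphere SP and 24.8 in the neurosphere non-SP. For the bright Piwil4 probe set they were the non-coding Snhg18 at 0.87, C1qtnf12 at 0.95 and Crip1 at 1.09, with an SD of 2.33. Crip1 averaged 942 in the 4346 SP, against 24.2 in the neurosphere SP, and 21.0 in the 3447 SP. For Piwil2 they were Kcns1, Tmbim1 and Il12rb1 at 0.43 to 0.51. For Sycp3 the closest was Chpt1 at 0.22, a gene that also lies next to it on chromosome 10. For Ddx4 they were Srsf9, Sh3bgrl2 and Bhlhe40, at 0.25 each, for Mael Shld1, Wdr48 and Klrc3, and for Dazl Vps8, Nmur2 and Sirt7. The profiles of Mael, Sycp3, Ddx4 and Dazl varied little, with an SD of 0.28, 0.38, 0.42 and 0.51, so their nearest genes carry little information.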

How the data were processed

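RNA of sorted cells was isolated with the RNeasy Micro kit, amplified with NuGEN's Ovation Pico kit and labelled with biotin, per the labels' protocols. The authors deposited probe set intensities: linear MAS5 signals from Affymetrix Expression Console, per the submitters' processing notes. Its version was not given there. Trimming 2% of probe sets at each end left a mean of 500 on every array, so arrays had been scaled alike.

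Of 45101 probe sets 64 controls were left out. Symbols came from the array's annotation (34945 probe sets with 1 symbol, 932 with several, 9160 with none), and each gene was taken by the brightest of its probe sets on average. Positions and promoters came from RefSeq on GRCm38.p6. Since the array medians differed by a ratio of 2.23, above the preset limit of 1.5, arrays were quantile normalized and log2(signal + 16) was fitted with limma 3.58.1 in R 4.3.3, with 5 group means (10 residual degrees of freedom), eBayes with its trend option, no filter on dim probe sets, and Benjamini-Hochberg adjustment over all 45037 probe sets at 0.05 (two-sided). Adjusted p-values are from this fit. The fit was tested on simulated data, with changes put only into probe sets brighter than the median, so changes of dim ones were not covered.

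All member probe sets are reported, with up to 4 called genes a list and comparison (smallest p), the 3 nearest genes on each side and the 3 genes most alike in profile. The members and the lists were chosen with earlier results of these data known. Of 188 list entries 159 had a probe set. The labels name no batch or date. Replicates are separate hosts or mice, per the design text. Same-numbered SP and non-SP arrays deviated together in neurospheres (r = 0.484, 0.454 and 0.504), which pairs them, but not in line 3447 (r = -0.265, -0.258 and -0.158). The number of arrays limits the precision. Alternatives were other added constants (1 and 64), the deposited scaling, median centring, a filter on dim probe sets, no trend, the compared groups alone, the mean of a gene's probe sets, a replicate block and leaving out each array. Leaving out both arrays that stood apart was chosen after seeing the data.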

Additional observations from a re-analysis of the deposited data

How the results depend on the processing

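Of 1197 member differences recomputed under the alternatives, 1160 moved by less than the spread between replicates and 37 moved by more, 24 of them with an added constant of 1 and 5 with 64. Nxf3 stood at 8.73 in the 3447 SP, 8.52 in the 4346 SP and 6.59 in the 3447 non-SP with a constant of 1, and at 6.01, 5.80 and 5.53 with 64, since its neurosphere signals are dim. Between SP and non-SP no member difference was called, and the differences from neurospheres and between the lines were not tested. Of the 1197, 70 had the other sign. The bright Piwil4 probe set stood at 5.88 and 3.90 in the 4346 SP. Against quantile normalization, the other scalings shifted the median of all probe sets by up to 0.21 in size. The number of the 103 other germline genes called higher was 1 in the 3447 SP in every setting run. In the 4346 SP it was 2, and 4 with the mean of a gene's probe sets, and 2 to 3 when arrays were left out. In the 3447 non-SP it was 5, and 2 with the deposited scaling, 3 with the compared groups alone and 2 to 5 when arrays were left out. It fell to 3 without any 1 of the 3447 non-SP arrays and to 2 without the first neurosphere non-SP array. Between the SP of the lines it was 0 throughout. The cause of these shifts was not tested.

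Between SP and non-SP, 0 of the 9 member probe sets were called in any of 25 other settings in each of the 3 comparisons, including the replicate block, which changed no member's call. The lowest adjusted p under the block in both origins was 0.227 in neurospheres (Nxf3), 0.755 in line 3447 and 0.991 for the difference of the effects. With 3 arrays a group, and a large share of the germline probe sets below their array's median, small changes of dim genes could not be resolved.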
